A study of Mus musculus with 15 samples.

Results

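The genes examined encode subunits of respiratory complexes III, IV and V in the mouse. They were taken from the deposited count table by name, as protein-coding genes named Uqcr or Atp5, the Cox genes numbered 4 to 8, Cyc1, and the mitochondrial genes mt-Cytb, mt-Co1, mt-Co2, mt-Co3, mt-Atp6 and mt-Atp8. This gave 50 of 40481 genes: 10 of complex III, 21 of complex IV and 19 of complex V. Of these, 44 lie in the nuclear genome and 6 in the mitochondrial genome. The nuclear genes comprised 37 ubiquitous ones, the 3 muscle-type isoforms Cox6a2, Cox7a1 and Cox8b, and 4 isoforms known mainly from other tissues. The tissue sequenced was mouse RPE/choroid, that is, the pigmented epithelium of the retina (RPE) with its underlying vascular layer. All 15 libraries came from mice of genotype Abca1/Abcg1 flox/flox LysM-Cre, in which Cre is driven by a promoter active in myeloid cells, and all are labelled with AP20187 given into the peritoneal cavity. The 8 INK-ATTAC libraries also carried the INK-ATTAC transgene, in which the p16Ink4a promoter drives FKBP fused to caspase 8, through which AP20187 kills cells that use that promoter. The 7 control libraries lacked the transgene. Dosing of INK-ATTAC mice ran for 3 months on alternate days per the labels, and ages are not in the labels.

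Complex III passes electrons from ubiquinol to cytochrome c, and complex IV passes them on to oxygen. Both move protons across the inner mitochondrial membrane, and complex V, the ATP synthase, uses the return of these protons to make ATP. A few core subunits are translated inside the mitochondrion from its own genome, while the rest are encoded in the nucleus and imported, so each complex draws on both genomes. Several nuclear subunits of complex IV have paired isoforms, one made in most tissues and another in striated muscle. The RPE is rich in mitochondria, and the muscles that move the eye attach to its outer wall.

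Library totals lay between 39121503 counts (control 4) and 65065950 counts (INK-ATTAC 6). The mean level of the RPE markers was between 10.58 and 10.91 log2 CPM in every library, where CPM is the count scaled to the library total and its TMM factor, which matches the labelled tissue. Markers of other tissues also had reads, and their levels differed between libraries. The mean level of 24 skeletal muscle markers was 4.74 ± 1.02 log2 CPM (SD, n = 7) in controls and 5.60 ± 0.72 (SD, n = 8) in INK-ATTAC libraries. In controls it ran from 3.06 to 5.89 and in INK-ATTAC libraries from 4.25 to 6.41. All 24 were higher on average in INK-ATTAC libraries, with a median log2 fold change of 0.77, but none passed the adjusted test and 7 had an unadjusted p under 0.05. Lens markers were also higher, 13 of 13 with a median of 2.66 and 9 at an unadjusted p under 0.05, and their mean level ran from -2.04 to 3.38 log2 CPM in controls and from -1.36 to 6.20 in INK-ATTAC libraries. The part of lens RNA in the results was not tested. Libraries are called by the group and number of their labels. Xist, an RNA of female cells, ran from -0.79 to 0.86 log2 CPM in controls 1 to 3 and INK-ATTAC 1 to 4. In the other libraries it ran from 6.12 to 6.81, so both groups mix sexes. The labels do not say whether libraries came from separate animals. P-values therefore reflect only how far these samples spread, which may be technical among libraries of like sex. In bulk tissue, fewer cells of a type and less RNA per cell cannot be told apart.

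Several mitochondrially encoded genes have near-identical annotated copies in the nuclear genome. Sequences of the first 120 coding bases of mt-Co2, a core subunit of complex IV with a copper centre, are shown with its 2 closest nuclear copies because they bear on how its reads can be assigned. They are from GRCm38, at chrM:7013-7132 (plus strand), chr1:24615446-24615565 (minus strand, Gm28661) and chr2:22587843-22587962 (minus strand, Gm13341), read from the GENCODE M21 transcripts. Capitals mark bases that differ from mt-Co2.
mt-Co2: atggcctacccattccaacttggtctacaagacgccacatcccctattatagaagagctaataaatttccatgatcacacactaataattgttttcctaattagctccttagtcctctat
Gm28661: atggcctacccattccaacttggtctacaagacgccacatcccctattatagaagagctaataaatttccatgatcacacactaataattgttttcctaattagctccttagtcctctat
Gm13341: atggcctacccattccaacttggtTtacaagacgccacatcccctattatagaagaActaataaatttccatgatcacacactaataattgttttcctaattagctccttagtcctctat
Gm28661 has no differing base in this window and was identical to mt-Co2 over 681 aligned coding bases, and Gm13341 differs at 2 bases of the window and was 95.9% identical over the 681. Neighbouring copies on chromosome 1 were also identical to their mitochondrial gene, Gm10925 over 678 bases of mt-Atp6 and Gm28437 over 783 bases of mt-Co3. Copies of mt-Co1 were Gm29216, at 99.8% identity over 480 of 1542 bases, and Gm13340, at 97.6% over all 1542. No annotated copy of at least 95% identity was found for mt-Cytb or mt-Atp8. Nuclear sequence outside annotated pseudogenes was not searched. mt-Atp8 (chrM:7766-7969) begins between mt-Co2 and mt-Atp6, whose copies lie in the same order on chromosome 1. The stretch between those copies, from chr1:24614651 to chr1:24614885, holds no annotated copy and was not searched. Whether mt-Atp8 has a nuclear copy there was therefore not tested.

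Copies of identical sequence had counts close to those of the mitochondrial gene. Gm28661 had 1.08 times the counts of mt-Co2 summed over the libraries, with a ratio between 1.01 and 1.16 in single libraries. Gm10925 had 0.965 times the counts of mt-Atp6 and Gm28437 0.896 times those of mt-Co3. Since reads of identical sequences cannot be told apart, the counts of mt-Co2, mt-Atp6 and mt-Co3 alone are uncertain. For mt-Co1, Gm29216 had 0.0483 and Gm13340 0.0350 times its counts, so its counts stood far above those of its copies. Which reads came from which genome cannot be told apart in these counts.

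Levels of different genes were compared per length, as RPKM, the CPM divided by the length of the principal transcript in kilobases. mt-Cytb, the only mitochondrially encoded subunit of complex III, was at 5362 ± 615 RPKM (SD, n = 15), the highest of all 50 genes. mt-Co1, the catalytic subunit of complex IV, was at 3190 ± 434 RPKM. Both stood above every nuclear gene in the mean. mt-Co3, a core subunit beside mt-Co1, was at 437 ± 71.1 RPKM and at 829 ± 138 with its nuclear copies added. mt-Atp6, the membrane channel of the ATP synthase, was at 289 ± 48.0 RPKM alone and 568 ± 97.8 with its copy. mt-Co2 was at 242 ± 39.9 RPKM alone and 613 ± 97.9 with both copies. In these counts, adding copies moved these 3 genes closer to mt-Cytb but left them below it. How reads that match several places were counted is not given, so these 3 levels may be too low even with copies. mt-Atp8, a small membrane subunit whose gene overlaps mt-Atp6, was lowest at 14.1 ± 3.80 RPKM. How reads in the overlap were assigned is not given in the sources used here, and loss of reads to an unannotated nuclear copy was not tested.

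**Figure D1:**
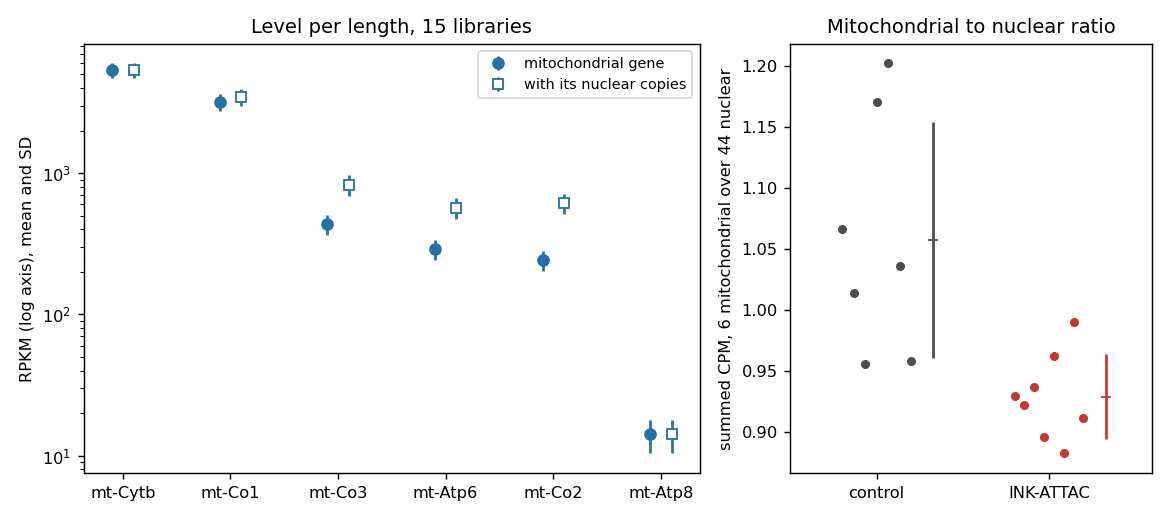
Left, mean level per length (RPKM, log axis) of the 6 mitochondrially encoded genes over 15 libraries with SD, alone (filled) and with nuclear copies added (open). In these counts mt-Cytb and mt-Co1 are highest with or without copies. Right, ratio of summed CPM of the 6 mitochondrial to the 44 nuclear genes in each library, with mean and SD beside the points. Controls spread from 0.956 to 1.20 and INK-ATTAC libraries from 0.883 to 0.990.

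The 3 highest nuclear genes per length belonged to complexes III and IV. Cox4i1, a large structural subunit of complex IV that takes part in its regulation by ATP, had a mean of 1095 RPKM, Cox8a, a small membrane subunit, 1053, and Uqcr10, a small accessory subunit of complex III, 911. Other nuclear genes of complex III were lower, with the core proteins Uqcrc1 at 194 and Uqcrc2 at 109 RPKM. The nuclear-encoded subunits that carry electrons were also lower, with Uqcrfs1, the Rieske iron-sulfur protein, at 117 and Cyc1, cytochrome c1, at 102 RPKM. In complex V the range was narrower, from 881 for Atp5h, a stalk subunit, to 228 RPKM for Atp5j2, a membrane subunit, apart from mt-Atp8 and from Atp5s at 12.7 RPKM. Atp5s is a coupling factor rather than a core subunit. These orders rest on 1 transcript length per gene, while the counts may include reads of longer transcripts.

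**Figure D2:**
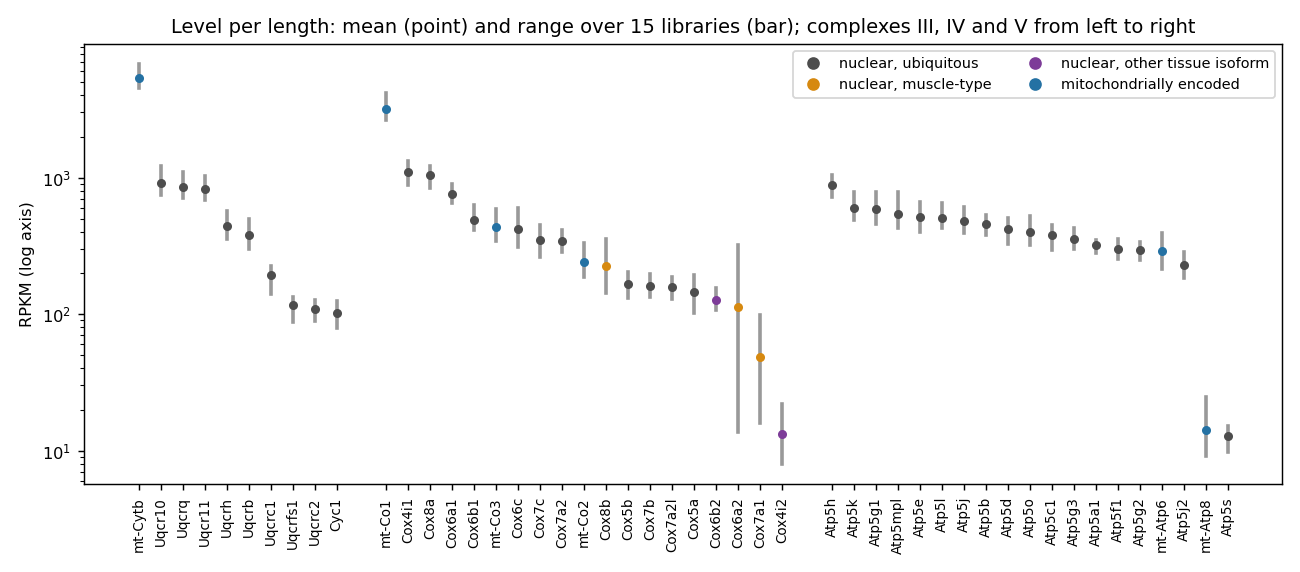
Level per length (RPKM, log axis) of the 48 tested genes, by complex and in falling order. Points are means over 15 libraries and bars run from the lowest to the highest library. mt-Cytb and mt-Co1 stand highest, and the bar of Cox6a2 is the longest, since its CPM differed 23.4-fold between its lowest and highest library.

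Between INK-ATTAC and control libraries no gene of the 3 complexes changed past the threshold. Of the 50 genes, 48 had enough counts to test, while Cox7b2 and Cox8c did not. With edgeR's quasi-likelihood test and Benjamini-Hochberg adjustment over 17991 genes, 0 of the 48 were called (the background in each direction was 0.0%), and each had an adjusted p of 1.00. At an unadjusted p under 0.05, 7 were higher in INK-ATTAC libraries and 0 lower, where 2.2% of all genes tested were higher and 1.94% lower. Estimates were above 0 for 41 of the 48, against 49.8% of all genes. Estimates were small outside the muscle-type isoforms, with a median log2 fold change of 0.07 over the 37 ubiquitous genes, -0.01 over the 6 mitochondrial genes, and 0.08 over the 42 nuclear genes tested. The median over all genes was -0.00097. The ubiquitous median turned to -0.02 with muscle level as a covariate. It was 0.04 without control 6, control 7, INK-ATTAC 1 or INK-ATTAC 2, 0.10 without control 3 or 5, and 0.12 under sample weights. The sign of the mitochondrial median turned under limma-voom without weights (0.0052) and with them (0.04), with a block for the title number (0.03), and without control 5 (0.06) or INK-ATTAC 3, 6, 7 or 8. The groups overlapped for all 48 genes, while 0.0222% of all genes had groups that did not. These counts varied with single libraries: leaving out 1 library at a time, the number higher at an unadjusted p under 0.05 ran from 1 (without control 4 or 6 or INK-ATTAC 1, 2 or 4) to 12 (without INK-ATTAC 3 or 7), and was from 2 to 4 without control 2 or 7 or INK-ATTAC 5, 6 or 8. The nuclear median was 0.04 without INK-ATTAC 2, 0.05 without control 6 and 0.05 without INK-ATTAC 4. DESeq2 called 6 genes (0.00556% higher and 0.0278% lower) and limma-voom with sample quality weights 2 (0.00556% each way), none of them among the 48. At an unadjusted p under 0.05, DESeq2 had 4 of the 48 higher and 0 lower, against 2.23% and 1.98% of all genes, and the weighted fit had 12 and 0, against 3.65% and 2.29%.

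**Figure D3:**
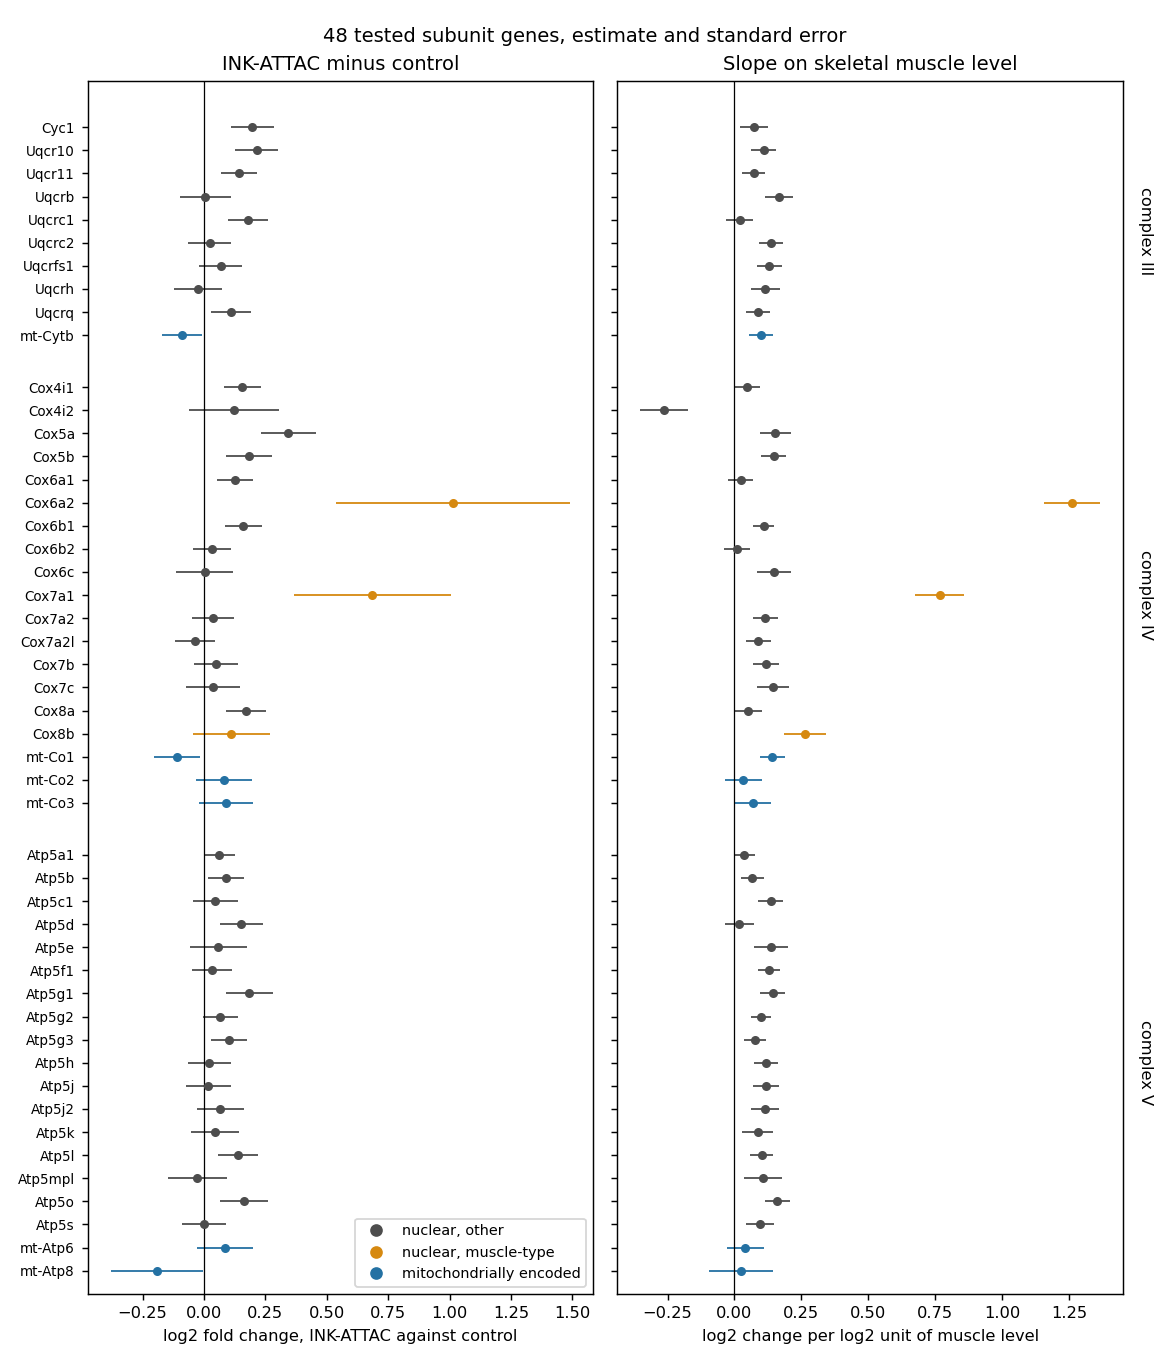
Estimates with standard error for the 48 tested genes, ordered by complex. Left, log2 fold change of INK-ATTAC against control. Right, log2 change per log2 unit of skeletal muscle level, in a model with the group. Cox6a2 and Cox7a1 stand to the right in both panels, most other genes lie near 0 on the left and slightly above 0 on the right, and Cox4i2 alone has a negative slope.

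In complex III, 8 of 10 estimates were above 0 and 3 had an unadjusted p under 0.05, with none called. Cyc1, which hands electrons to cytochrome c, had a lowest, median and highest CPM of 121, 140 and 183 in controls and 141, 168 and 189 in INK-ATTAC libraries. The groups overlapped over most of their range. Its log2 fold change was 0.20 (SE 0.09), and that of Uqcr10 was 0.21 (SE 0.09). Uqcr10 ran from 325 to 418 CPM in controls and from 354 to 532 in INK-ATTAC libraries, with INK-ATTAC 2 highest. Uqcrc1, a core protein that faces the matrix, had an estimate of 0.18 (SE 0.08), and its lowest value was in control 4. Its partner Uqcrc2 was at 0.02 (SE 0.09) and Uqcrfs1 at 0.07 (SE 0.09). Both of these turned below 0 with muscle level as a covariate, at -0.09 and -0.05, and Uqcrc2 also without controls 2, 6 or 7 or INK-ATTAC 1, 2 or 4. Uqcrh, the hinge protein that helps cytochrome c bind, was at -0.02 (SE 0.10), and its sign turned under sample weights (0.06) and without control 4, control 5 or INK-ATTAC 3. For mt-Cytb, which holds the haem groups that take electrons from ubiquinol, the lowest, median and highest CPM were 5194, 6258 and 7772 in controls and 5460, 5830 and 6770 in INK-ATTAC libraries. The INK-ATTAC libraries lay inside the range of the controls, and the log2 fold change was -0.09 (SE 0.08).

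Among the complex IV genes made in most tissues, Cox5a, a subunit of the matrix side, had the lowest unadjusted p of the 48 genes. Its CPM was 89.2, 81.9, 104, 74.0, 81.3, 66.1 and 77.7 in controls 1 to 7. In INK-ATTAC libraries 1 to 8 it was 112, 126, 90.3, 117, 109, 110, 71.2 and 98.2. INK-ATTAC 7 lay among the lowest controls and control 3 among the INK-ATTAC libraries, so the groups overlapped. The log2 fold change was 0.34 (SE 0.11), with an unadjusted p of 0.00661 and an adjusted p of 1.00 in edgeR's quasi-likelihood test, and it was between 0.29 and 0.41 when single libraries were left out. Cox4i1 was at 0.16 (SE 0.08) and Cox6b1, which faces the intermembrane space, at 0.16 (SE 0.08), the latter with an unadjusted p under 0.05. Cox7b, a membrane subunit, was at 0.05 (SE 0.09), and Cox7a2l, which joins complexes III and IV into supercomplexes, at -0.04 (SE 0.08). Cox7b turned to -0.06 with muscle level as a covariate and to -0.0064 without INK-ATTAC 2, and Cox7a2l to 0.02 under sample weights.

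Estimates for the mitochondrial core of complex IV did not share 1 direction, but none had an unadjusted p under 0.05. The counts of mt-Co2 and mt-Co3 are also uncertain because of their nuclear copies. mt-Co1 had a lowest, median and highest CPM of 4116, 5119 and 6427 in controls and 4289, 4643 and 5615 in INK-ATTAC libraries, and its log2 fold change was -0.11 (SE 0.09). The estimates of mt-Co2 and mt-Co3 were 0.08 (SE 0.11) and 0.09 (SE 0.11). mt-Co3 turned to -0.0034 with muscle and rod levels together as covariates. mt-Co2 ran from 129 to 225 CPM in controls and from 140 to 204 in INK-ATTAC libraries, and mt-Co3 from 270 to 465 and from 305 to 435. For all 3 genes the INK-ATTAC libraries lay inside the range of the controls, where control 5 was highest.

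Complex V had no gene with an unadjusted p under 0.05. The catalytic head is built of alternating alpha (Atp5a1) and beta (Atp5b) subunits, whose log2 fold changes were 0.06 (SE 0.06) and 0.09 (SE 0.07). Atp5a1 had the smallest spread of the tested genes, with 1.26-fold between its lowest and highest library. The ring that turns with the passing protons is built of subunit c, which 3 genes encode as the same mature protein. Atp5g1 was at 0.18 (SE 0.09), Atp5g2 at 0.07 (SE 0.07) and Atp5g3 at 0.10 (SE 0.07), and Atp5g2 turned to -0.02 with muscle level as a covariate. Per length, Atp5g1 was highest at 592 RPKM, followed by Atp5g3 at 354 and Atp5g2 at 294. Atp5mpl, a small associated protein, was at -0.03 (SE 0.12), with 0.07 under sample weights, and turned without control 4, control 5 or INK-ATTAC 3. mt-Atp6 was at 0.09 (SE 0.11), from 147 to 269 CPM in controls and from 172 to 243 in INK-ATTAC libraries. mt-Atp8 was at -0.19 (SE 0.19), from 1.87 to 5.01 CPM in controls and from 1.88 to 3.09 in INK-ATTAC libraries, so for both the INK-ATTAC libraries lay inside the range of the controls.

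Some nuclear genes have near-identical pseudogenes, and the origin of reads counted there was not tested. Annotated pseudogenes of at least 95% identity held counts equal to 17.2% of those of Uqcrb, 10.6% of Atp5l, 9.94% of Atp5h, 8.93% of Atp5g1 and 8.65% of Atp5g2, so the levels of these 5 are less certain. None was found for Cox6a2, Cox7a1, Cox8b, Cox6a1, Cox7a2 or Cox8a. The isoforms of a pair were distinct in sequence: the coding regions of Cox6a2 and Cox6a1 were 56.2% identical, those of Cox7a1 and Cox7a2 58.5% and those of Cox8b and Cox8a 52.1%. No run of identical bases in these 3 pairs was longer than 12.

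The 3 muscle-type isoforms lie on chromosome 7 of GRCm38: Cox6a2 at chr7:128205435-128206387 (minus strand), Cox7a1 at chr7:30184144-30186078 (plus strand) and Cox8b at chr7:140898945-140900446 (minus strand). Their partners Cox6a1, Cox7a2 and Cox8a lie on chromosomes 5, 9 and 19. The 250 bases before the RefSeq start (build GRCm38.p6) are shown for Cox7a1 and Cox8b, muscle-type genes that differed in how closely they followed muscle RNA, and for Cox6a1, a ubiquitous gene. They are at chr7:30183921-30184170 (plus strand), chr7:140900447-140900696 (minus strand) and chr5:115348959-115349208 (minus strand). Capitals mark matches, on either strand, to 4 motifs searched: a palindrome of NRF1 (GCGCA and GCGC around 1 base of any kind), CCGGAAG (a core bound by ETS factors such as GABP), CAGCTG (an E-box of muscle regulators) and a loose MEF2-like pattern (CTA and TAG around 4 bases of any kind, where MEF2 sites have A or T).
Cox7a1: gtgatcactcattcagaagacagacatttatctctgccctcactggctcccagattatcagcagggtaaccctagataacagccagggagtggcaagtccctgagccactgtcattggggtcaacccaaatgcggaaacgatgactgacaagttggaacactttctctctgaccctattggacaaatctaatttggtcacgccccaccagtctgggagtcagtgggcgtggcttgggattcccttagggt
Cox8b: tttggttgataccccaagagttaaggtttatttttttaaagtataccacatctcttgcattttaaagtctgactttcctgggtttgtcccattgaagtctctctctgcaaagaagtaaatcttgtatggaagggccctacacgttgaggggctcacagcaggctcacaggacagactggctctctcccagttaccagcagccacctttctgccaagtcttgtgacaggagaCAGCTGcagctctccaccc
Cox6a1: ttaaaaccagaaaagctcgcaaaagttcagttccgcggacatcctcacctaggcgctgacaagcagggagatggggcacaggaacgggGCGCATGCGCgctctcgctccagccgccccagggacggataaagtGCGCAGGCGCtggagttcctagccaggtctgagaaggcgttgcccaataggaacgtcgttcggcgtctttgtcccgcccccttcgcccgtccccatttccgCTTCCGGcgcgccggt
Cox7a1 held none of the 4 in this window, Cox8b held 1 CAGCTG, 19 bases before the start, and Cox6a1 held 2 NRF1 motifs and 1 CCGGAAG. Promoters were matched for 33 of the 44 nuclear genes, Cox7a2 and Cox8a among them, which held no match. None was available for Cox6a2, so the muscle-type genes searched were Cox7a1 and Cox8b only. The NRF1 motif was found in 5 of the 33 (15.2%) against 4.23% of 27025 promoters of the same length, and CCGGAAG in 8 (24.2%) against 7.83%. CAGCTG was found in 2 (6.06%) against 14.7%, and the loose MEF2-like pattern in 1 (3.03%), Cox5b, against 3.7%. Matches describe letters in these windows and do not show binding.

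Cox6a2, the striated muscle form of subunit 6a, varied more between libraries than any other of the 48 genes. Its CPM was 106, 9.28, 61.3, 50.4, 80.6, 19.7 and 20.5 in controls 1 to 7. In INK-ATTAC libraries 1 to 8 it was 145, 217, 58.4, 108, 77.9, 80.3, 20.5 and 96.2. Controls 2, 6 and 7 and INK-ATTAC 7 were low, INK-ATTAC 1, 2 and 4 were above every control, and the groups overlapped. The log2 fold change was 1.01 (SE 0.48), with an unadjusted p of 0.0483 and an adjusted p of 1.00 in edgeR's quasi-likelihood test. Cox7a1, the striated muscle form of subunit 7a, had the second widest spread. Its CPM was 21.8, 6.31, 17.5, 15.1, 24.2, 7.17 and 9.47 in controls and 34.2, 39.0, 14.2, 28.3, 20.9, 18.9, 9.01 and 22.0 in INK-ATTAC libraries. The same 4 libraries were lowest as for Cox6a2, and the log2 fold change was 0.69 (SE 0.32, unadjusted p 0.0463).

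Cox8b, the muscle form of subunit 8 that brown fat also uses, was at 75.1, 63.1, 71.5, 68.9, 127, 72.9 and 68.3 CPM in controls and 99.0, 115, 84.4, 82.0, 82.7, 84.2, 51.5 and 76.5 CPM in INK-ATTAC libraries. Control 5 was highest and INK-ATTAC 7 lowest. The log2 fold change was 0.11 (SE 0.16) and turned to -0.12 with muscle level as a covariate. Without control 5 it was 0.26. Of the libraries highest and second highest for Cox8b, control 5 had the lowest fat marker level of all (-0.14 log2 CPM) and INK-ATTAC 2 the highest (3.30), and the part of fat in the result was not tested. Per length, the means of the muscle-type isoforms were 226 RPKM for Cox8b, 113 for Cox6a2 and 48.9 for Cox7a1, and their partners were at 1053 (Cox8a), 762 (Cox6a1) and 340 (Cox7a2).

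The partner genes varied far less. Cox6a1 had a lowest, median and highest CPM of 371, 399 and 515 in controls and 396, 456 and 488 in INK-ATTAC libraries, with a log2 fold change of 0.12 (SE 0.07). Cox7a2 was between 188 and 270 CPM in controls and between 196 and 272 in INK-ATTAC libraries, at 0.04 (SE 0.09), and turned to -0.06 with muscle level as a covariate and to -0.02 without INK-ATTAC 2. Cox8a was between 459 and 661 CPM in controls and between 515 and 671 in INK-ATTAC libraries, at 0.17 (SE 0.08). In all 3 the groups overlapped, for Cox7a2 over nearly the whole range.

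**Figure D4:**
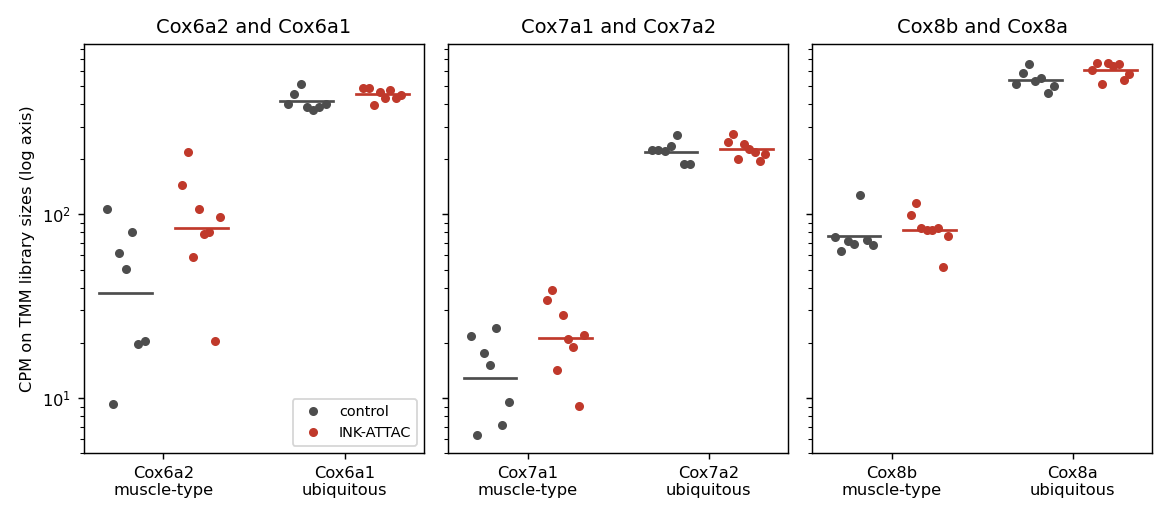
CPM on a log axis of each muscle-type isoform and its ubiquitous partner, 1 point per library in label order, with the geometric mean of the group as a line. Cox6a2 and Cox7a1 spread widely within both groups and share their lowest libraries, while Cox6a1, Cox7a2 and Cox8a lie in narrow bands.

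The ratio of a muscle-type isoform to its partner within a library does not depend on scaling. Cox6a2 had from 2.06% (control 2) to 44.5% (INK-ATTAC 2) of the CPM of Cox6a1. The log2 ratio was -3.47 ± 1.32 (SD, n = 7) in controls and -2.43 ± 0.94 (SD, n = 8) in INK-ATTAC libraries, a difference of 1.04 (two-sided exact permutation p = 0.0965, adjusted over the 3 pairs 0.145). Cox7a1 had from 2.84% to 14.3% of Cox7a2, in the same lowest and highest libraries. The log2 ratio was -4.08 ± 0.66 (SD, n = 7) and -3.40 ± 0.54 (SD, n = 8), a difference of 0.68 (exact permutation p = 0.0488, adjusted 0.145). Neither difference passed after adjustment. Without INK-ATTAC 7 both did, at 1.32 (exact permutation, adjusted p = 0.0437) and 0.83 (adjusted p = 0.0367). Without control 2 they were smaller, at 0.68 (exact permutation, adjusted p = 0.318) and 0.51 (adjusted p = 0.316). For Cox8b the log2 ratio to Cox8a was -2.83 ± 0.38 (SD, n = 7) and -2.88 ± 0.28 (SD, n = 8), a difference of -0.05 (exact permutation p = 0.759), and its sign turned without control 5 (0.06) or INK-ATTAC 7.

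Skeletal muscle level, the mean log2 CPM of 24 muscle markers none of which is a subunit gene, tracked the muscle-type isoforms across libraries. In a model with the group, edgeR's quasi-likelihood test called 2 of the 48 genes for muscle level, both with positive slopes. Of all genes, 0.778% were called higher, among them 20 of the 24 markers that form the level, and 0.00556% lower. The 2 subunit genes called were Cox6a2, with a slope of 1.26 (SE 0.11) log2 units per log2 unit of muscle level and an adjusted p of 1.21e-06, and Cox7a1, with 0.77 (SE 0.09) and an adjusted p of 6.59e-05. Both were called in each fit without 1 library. Without control 2, which had the lowest muscle level, 4 genes were called, adding Atp5g1 at 0.23 (SE 0.05) and Atp5o, the stalk protein OSCP, at 0.23 (SE 0.05), with 0.617% of all genes called higher. Cox8b had a slope of 0.26 (SE 0.08) with an unadjusted p of 0.00330 and an adjusted p of 0.202.

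The other subunit genes had smaller slopes, nearly all of the same sign. Slopes were above 0 for 47 of the 48 genes against 49.7% of all genes tested, with a median of 0.11 against -0.00087. At an unadjusted p under 0.05, 27 of the 48 were higher with muscle level and 1 lower, against 5.54% and 6.19% of all genes. The 27 became 15 without control 7 or INK-ATTAC 7 and 16 without control 5, and ran up to 33 without control 2. The median slope was 0.11 over the 37 ubiquitous genes and 0.06 over the 6 mitochondrial genes, where mt-Co1 was at 0.14 (SE 0.05) and mt-Cytb at 0.10 (SE 0.04). The mitochondrial median turned to -0.0070 without control 5 and was 0.10 without control 1 and 0.13 without control 2, and the ubiquitous median was 0.18 without control 2. Slopes of mt-Co2, mt-Atp6 and mt-Atp8 were 0.03, 0.04 and 0.03, each within its SE and each below 0 without control 5. Among the largest slopes of ubiquitous genes were those of Uqcrb, an accessory subunit of complex III, at 0.17 (SE 0.05), and Atp5o, at 0.16 (SE 0.05). Cox6a1, the partner of Cox6a2, was among the smallest at 0.02 (SE 0.05), and turned to -0.0040 without control 3. Cox4i2 was the gene with a negative slope, -0.26 (SE 0.09, unadjusted p 0.00853, adjusted p 0.300). Endothelial markers also had negative slopes, 10 of 10, with 9 at an unadjusted p under 0.05 and none called. Smooth muscle markers had negative slopes for 7 of 8. At an unadjusted p under 0.05, 2 of these were below 0 and 1 smooth muscle marker was above, with none called. The part of either cell type in the results was not tested.

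Correlations with muscle level over 15 libraries were computed for 6 genes and adjusted over them. For Cox6a2, Pearson's r was 0.967 and Spearman's rho 0.968 (permutation p = 1e-05 for each, the smallest that 100000 permutations can give, adjusted 3e-05). For Cox7a1 r was 0.932 and rho 0.936, with the same p-values. For Cox8b r was 0.657 (permutation p = 0.0081, adjusted 0.0162) and rho 0.721 (permutation p = 0.00305, adjusted 0.0061). Without controls 2 and 7, which were farthest from the median muscle level, r was 0.944 for Cox6a2, 0.925 for Cox7a1 and 0.646 for Cox8b. Within controls r was 0.980, 0.920 and 0.552 for these genes, and within INK-ATTAC libraries 0.927, 0.918 and 0.807, so the relation had the same sign in both groups.

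The ubiquitous partners had weaker relations than Cox6a2 and Cox7a1, while Cox7a2 was close to Cox8b. Cox7a2 had an r of 0.574 (permutation p = 0.0250, adjusted 0.0374) and a rho of 0.604 (adjusted 0.0289), but the adjusted p of r passed 0.05 in 6 of the fits without 1 library, the highest being 0.111 without control 7. Cox8a had an r of 0.461 (permutation p = 0.0835, adjusted 0.1002) and a rho of 0.546 (adjusted 0.0457), and its r was 0.634 (adjusted permutation p = 0.0195) without control 2. Cox6a1 had an r of 0.320 (permutation p = 0.245) and a rho of 0.461 (permutation p = 0.0868). Within controls its r was -0.177 and within INK-ATTAC libraries 0.752. Without controls 2 and 7 the r of the 3 genes was 0.685, 0.585 and 0.493, where that of Cox8b was 0.646.

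**Figure D5:**
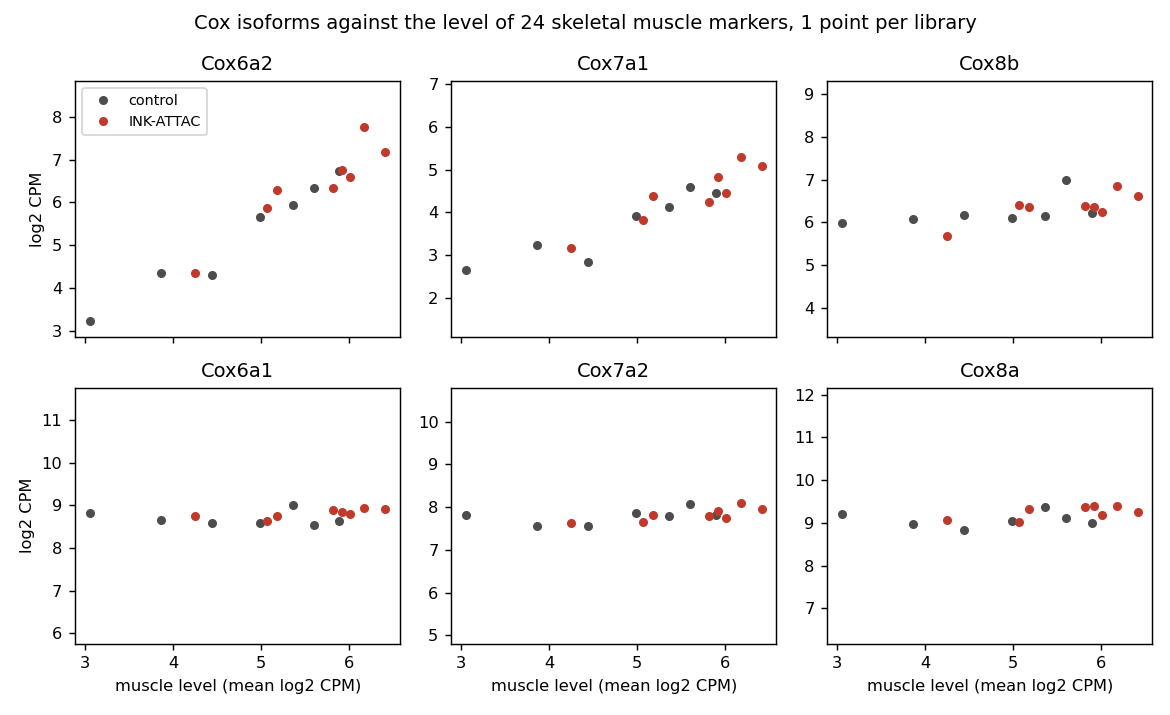
Log2 CPM of 6 Cox isoforms against skeletal muscle level (mean log2 CPM of 24 markers), 1 point per library, on vertical axes of equal span. Cox6a2 and Cox7a1 climb with muscle level in both groups (r = 0.967 and 0.932), Cox8b follows it less closely (r = 0.657), and Cox6a1, Cox7a2 and Cox8a are nearly level.

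With muscle level as a covariate, the group estimates of the muscle-type isoforms were near 0. Cox6a2 went from 1.01 to 0.12 (SE 0.18) and Cox7a1 from 0.69 to 0.06 (SE 0.16). Over the 48 genes, 25 estimates were then above 0, against 53.0% of all genes, and the nuclear median was 0.02. At an unadjusted p under 0.05, 1 gene was higher, Cox4i2 at 0.36 (SE 0.17), where 2.04% of all genes were. The 2 lower ones were mt-Co1 at -0.23 (SE 0.09) and mt-Cytb at -0.17 (SE 0.08), where 2.74% of all genes were. None was called, the lowest adjusted p of the 48 being 0.928. Cox5a was at 0.20 (SE 0.11). Muscle level and the transgene differed together between the groups, so what each adds cannot be told apart in full.

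Summed levels of the 2 genomes differed in opposite directions between the groups, by amounts within or close to the spread of libraries. The 6 mitochondrial genes summed to 12158 ± 1795 CPM (SD, n = 7) in controls and 11432 ± 1029 (SD, n = 8) in INK-ATTAC libraries, while the 44 nuclear genes summed to 11471 ± 1029 and 12321 ± 1201. The ratio of mitochondrial to nuclear sums was 1.06 ± 0.10 in controls and 0.929 ± 0.035 in INK-ATTAC libraries, as the plot of this ratio by library shows. Controls 4 and 5 were highest at 1.17 and 1.20, and 6 of the 8 INK-ATTAC libraries were under the lowest control, at 0.956, with INK-ATTAC 5 and 7 above it. This ratio was formed with the estimates in view and is a description with no test. The ratio depends on both the lower mitochondrial sum and the higher nuclear sum of INK-ATTAC libraries. Most of the mitochondrial sum is mt-Cytb and mt-Co1, which summed to 11472 ± 1707 CPM in controls and 10705 ± 938 in INK-ATTAC libraries. The sum of mt-Co2, mt-Co3 and mt-Atp6 lay the other way, at 682 ± 137 and 724 ± 94.4 CPM.

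The other 4 isoforms are known mainly from other tissues, but Cox6b2 and Cox4i2 had counts in every library here. Cox4i2, the form of subunit 4 known from lung and from cells under low oxygen, was at 9.13 ± 2.81 CPM (SD, n = 7) in controls and 9.94 ± 2.51 (SD, n = 8) in INK-ATTAC libraries, with INK-ATTAC 7 highest at 15.9 and control 5 lowest at 5.76. Its log2 fold change was 0.12 (SE 0.18), and -0.0077 without INK-ATTAC 7. Cox6b2, known from testis, was at 58.7 ± 5.21 and 60.0 ± 6.48 CPM, with a log2 fold change of 0.03 (SE 0.08) that turned to -0.0057 with rod level as a covariate and below 0 without control 1 or INK-ATTAC 2. Per length, Cox6b2 was at 128 RPKM against 489 for its partner Cox6b1, and Cox4i2 at 13.2 against 1095 for Cox4i1. The testis forms Cox7b2 and Cox8c were near 0. Cox7b2 had 60 counts in all, of which 12, 7 and 22 were in controls 1, 3 and 7 and at most 6 in any INK-ATTAC library, and Cox8c had 1 count, in control 7.

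Rods, the photoreceptors that face the RPE, did not track the subunit genes in a stable way. In the model with rod level, 0 of the 48 genes were called in edgeR's quasi-likelihood test. Of all genes, 0.528% were called higher, among them 15 of the 16 rod markers that form the level, and 0.0% lower. None of the 48 had an unadjusted p under 0.05, against 2.87% of all genes higher and 1.9% lower. Slopes were below 0 for 39 of the 48 and above 0 for 9, against 49.3% of all genes above 0, with a median of -0.03. Without INK-ATTAC 2, which had the lowest rod level, 45 of 48 slopes were above 0 with a median of 0.08, against 50.4% of all genes, so the sign rests on that library. INK-ATTAC 2 and control 5 were the highest libraries for 20 and 21 of the 48 genes, and control 6 was the lowest for 21.

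Other genes of the respiratory chain were read from lists, with none called in any of them between the groups. Complex II, which feeds electrons to ubiquinol from succinate, had 3 of 4 subunits above 0, with Sdhb at 0.14 (SE 0.09), Sdhc at 0.08 (SE 0.05) and Sdha at -0.02 (SE 0.10). Of the cytochrome c list 1 of 2 was above 0: Cycs, the electron carrier itself, was at 0.02 (SE 0.13), and Hccs, which attaches its haem, at -0.06 (SE 0.09). Complex III assembly factors were split 3 to 3, from Uqcc3 at 0.13 (SE 0.06) and Bcs1l, which inserts the Rieske protein, at 0.05 (SE 0.08) to Ttc19 at -0.01 (SE 0.08) and Uqcc1 at -0.04 (SE 0.06). The list of complex IV assembly and associated genes, which includes the subunit Ndufa4, had 19 of 28 above 0. Cox10, which makes haem A, was at 0.21 (SE 0.10) and Cmc2 at 0.13 (SE 0.08), with Cmc1 at -0.16 (SE 0.10) and Coa5 at -0.07 (SE 0.06).

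The list of complex V assembly and regulation had 6 of 8 above 0, led by Fmc1 at 0.23 (SE 0.08) and Atpaf1, a chaperone of the beta subunit, at 0.12 (SE 0.10). Tmem70 and Usmg5, a small ATP synthase subunit outside the name rule, were at -0.01 each. Regulators of mitochondrial transcription were split 7 to 7. Nrf1 was at 0.13 (SE 0.09), Polrmt, the mitochondrial RNA polymerase, at 0.14 (SE 0.14), Tfam, which packages mitochondrial DNA, at -0.18 (SE 0.08) and Gabpa at -0.14 (SE 0.09). Along muscle level, slopes were above 0 for 4 of 4 complex II genes and 6 of 6 complex III assembly genes. They were above 0 for 24 of 28 genes of the complex IV list, 7 of 8 of the complex V list and 9 of 14 regulators, with none called.

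The authors' deposited table held 48 of the 50 genes among 14442. Of the 48 log2 fold changes in the authors' deposited table, 45 were above 0, against 48.7% of its genes, and 13 had an unadjusted p under 0.05, all above 0, against 6.42% of its genes in either direction. None of the 48 passed the authors' adjusted p of 0.05, which 0.0208% of the genes in the authors' deposited table did, and the lowest adjusted p among the 48 was 0.634. The log2 fold changes of Cox6a2, Cox7a1 and Cox5a in the authors' deposited table were 1.67, 1.04 and 0.36. The edgeR estimates here were 1.01, 0.69 and 0.34, from a different fit and gene filter. Under limma-voom with sample quality weights the median of the muscle-type isoforms was 1.00. Why the sets differ was not tested.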

How the data were processed

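RNA-seq was performed on 15 libraries. The authors deposited raw counts per Ensembl gene, which are not normalized per the file headers, and a comparison table with log2 fold changes and their limits, p-values and adjusted p-values, and, per the file headers, a score column that was not used. The submitters' processing notes name DRAGEN, bcl2fastq, limma and edgeR and the build GRCm38. No version, counter, strand setting or annotation release is stated (not given in the sources used here), so reads of overlapping or antisense genes cannot be told apart. Per the labels' protocols, cDNA was amplified with SMARTer, so counts include amplified copies.

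The count table held 40757 entries, of which 276 repeats were collapsed to leave 40481 genes. No 2 libraries of a group were alike (lowest chi-square per gene 29.8). Counts were scaled with TMM, filtered with filterByExpr, which left 17991 genes, and tested with edgeR 4.0.16 (R 4.3.3) by quasi-likelihood F-test. Tests were two-sided at an adjusted p of 0.05 (Benjamini-Hochberg, all genes tested). The standard error is the absolute log2 fold change over the square root of F. Log2 CPM used a prior count of 2. Slopes came from the same test in a model of group plus muscle or rod level. Isoform ratios were tested with exact permutation over 6435 arrangements (SciPy 1.17.1). RPKM used the shortest APPRIS principal transcript of GENCODE M21. Copies were searched with BLAST+ 2.17.0+ over at least 150 aligned bases at 95% identity. Promoters came from RefSeq on GRCm38.p6, and protein sequences were not used here.

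On simulated data of 17991 genes with 200 changed 2-fold between groups, 90.5% were recovered and 4.23% of calls were false. With 200 genes given a slope of 0.5 log2 per SD of the covariate, 92.5% were recovered and 6.09% of calls were false. The changed genes were drawn from well-counted ones, and the covariate was random, whereas muscle level differed between the groups. Smaller changes were not simulated, so these rates do not apply to the small estimates of most subunit genes.

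The members and lists were chosen with earlier results of these data known. Genes named were the mitochondrial genes, isoform pairs, subunit c paralogs, catalytic subunits, the 6 of lowest p in each direction, and in lists the 2 of lowest p in each direction. Other genes were named after their values were seen: Uqcrb, Atp5h, Atp5j2, Atp5l, Atp5o, Atp5s and Cox5b. Alternatives were DESeq2 1.42.0, limma-voom 3.58.1 with and without sample quality weights, RLE scaling, chromosome MT left out, other low-count filters, covariates for muscle, rod and sex-linked level, a replicate block, a prior count of 0.5, and leaving out each library. Summing nuclear copies with the mitochondrial gene, and a block by the numbers in the descriptions, were chosen after seeing the data.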

Additional observations from a re-analysis of the deposited data

Results flagged for a closer look

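The highest and lowest library of each group was compared with its neighbour for 48 genes, 3 isoform ratios and the ratio of the 2 genomes, in 104 groups of values, and 4 values stood apart. Chance alone flags about 1 in 20 such groups. Control 5 was far above the other controls for Cox8b (127.426 CPM, the next control at 75.1), mt-Co3 (465.096 CPM, the next at 352.7) and Atp5k, a membrane subunit of complex V (292.265 CPM, the next at 229.2). INK-ATTAC 7 was far above the other INK-ATTAC libraries for Cox4i2 (15.8929 CPM, the next at 10.2). Control 5 was the highest of all 15 libraries for 21 of the 48 tested genes.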

How the results depend on the processing

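The count of subunit genes called between groups was 0 in every alternative run, and the muscle-level count was 2 in all except the fit without control 2. All genes called between groups were 6 with DESeq2 and 2 with limma-voom with sample quality weights. With muscle level as a covariate the log2 fold change turned below 0 for 16 of the 48 genes, of those followed by name Cox8b (-0.12), Cox7a2 (-0.065), Cox7b (-0.055), Atp5g2 (-0.019), Uqcrc2 (-0.094) and Uqcrfs1 (-0.047). With muscle and rod levels it turned for 18, of those named mt-Co3 (-0.0034), Cox8b (-0.14), Cox7a2 (-0.079), Cox6b2 (-0.012), Cox7b (-0.081), Atp5g2 (-0.021), Uqcrc2 (-0.092) and Uqcrfs1 (-0.032), and with rod level for 3, of those named Cox6b2 (-0.0057). Sample weights turned 4, of those named Cox7a2l (0.018), Uqcrh (0.058) and Atp5mpl (0.073). The median of the muscle-type isoforms was 0.06 with muscle level and 1.00 with sample weights, that of nuclear genes -0.0022 with muscle and rod levels and 0.12 with sample weights, and that of mitochondrial genes -0.07 with muscle level and 0.04 with sample weights. Neither set of numbers in the labels paired the libraries. By title number, deviations of same-numbered libraries correlated between -0.101 and 0.292, and 1 of 7 correlated best with its own number. By the number in the descriptions, which differs for controls by 1, they correlated between -0.151 and 0.231, and 0 of 7 did. With a replicate block by title number 0 of the 48 genes were called and 3 turned, of those named Uqcrh (0.0027) and Atp5mpl (0.0094), the nuclear median was 0.09, the mitochondrial one 0.03, and the isoform differences were 1.01, 0.66 and -0.05. With a replicate block by description number, chosen after seeing the data, 0 of the 48 and 0 of all genes were called and 3 of the 48 turned, the nuclear median was 0.06, the ubiquitous one 0.04, the mitochondrial one -0.02, and the isoform differences were 0.94, 0.60 and -0.09 (exact sign-flip test, lowest adjusted p = 0.0938). Leaving out 1 library at a time, the muscle-level count ran from 2 to 4, the median of nuclear genes from 0.04 to 0.11, of mitochondrial genes from -0.05 to 0.06 and of muscle-type isoforms from 0.53 to 0.84. The Cox6a2 to Cox6a1 difference ran from 0.68 to 1.32, the Cox7a1 to Cox7a2 one from 0.51 to 0.83 and the Cox8b to Cox8a one from -0.12 to 0.064. Correlations with muscle level ran from 0.951 to 0.975 (Cox6a2), 0.920 to 0.950 (Cox7a1), 0.618 to 0.726 (Cox8b), 0.238 to 0.512 (Cox6a1), 0.494 to 0.745 (Cox7a2) and 0.388 to 0.634 (Cox8a). Log2 fold changes that turned ran from -0.081 to 0.067 (Atp5mpl), -0.0077 to 0.24 (Cox4i2), -0.021 to 0.066 (Cox6b2), -0.017 to 0.082 (Cox7a2), -0.0064 to 0.10 (Cox7b), -0.024 to 0.061 (Uqcrc2) and -0.072 to 0.036 (Uqcrh), and slopes on muscle level from -0.032 to 0.12 (mt-Co2), -0.024 to 0.10 (mt-Atp6), -0.084 to 0.093 (mt-Atp8), -0.0040 to 0.076 (Cox6a1), -0.0084 to 0.065 (Cox6b2) and -0.0053 to 0.055 (Uqcrc1), while that of Atp5g1 ran from 0.13 to 0.23. The cause of each of these shifts was not tested. Annotated copies in the nuclear genome limit mt-Co2, mt-Co3 and mt-Atp6, and summing them left 0 genes called and a mitochondrial median of -0.02. Whether an unannotated copy limits mt-Atp8 was not tested.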
